A study of Mus musculus with 2 samples.

Results

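Small RNAs from mouse testis were examined for abundant sequences that 1 library held and the other did not. A sequence was selected when it had at least 1000 reads in 1 library's count table and no line in the other library's table. This rule chose 51 distinct sequences in Tdrkh-/- and 23 in Tdrkh+/-, 74 in all, from 12118721 distinct sequences listed in Tdrkh-/- and 11808018 in Tdrkh+/-. The same minimum met libraries of different depth, and with the minimum in Tdrkh+/- lowered to 709 reads, the same share of its reads, the rule found 48 there. The members were selected on their measured read counts, and the difference that selected them is a description here and not a finding. In the comparison of all sequences of at least 1000 reads, 1.4% of 3631 in Tdrkh-/- and 1.02% of 2251 in Tdrkh+/- had no line in the other table. The members carried 405941 reads, 0.666% of the 60973266 listed, in Tdrkh-/-, and 45665 reads, 0.106% of 43172204, in Tdrkh+/-.

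Each genotype was represented by 1 library, made from 5 pooled pairs of testes at 11 days after birth, when the germ cells are entering meiosis. RNA of 15 to 40 nt was cut from a gel, and the tables held lengths of 18 to 40 nt. Tdrkh-/- carried a deletion of exons 2 to 4 of Tdrkh on both alleles and Tdrkh+/- on 1 allele, in both cases on a mixed C57Bl6/129 background, so the control was heterozygous and not wild type. Small RNA reads do not measure the deletion, which rests on the labels here. With 1 library a genotype, no test between genotypes was possible, library and genotype cannot be told apart, and the intervals given cover counting error only, for reads that carry no molecular identifiers.

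Tdrkh encodes a Tudor-domain protein of the mitochondrial surface that binds PIWI proteins and takes part in the trimming of piRNA precursors at their 3′ ends. piRNAs are small RNAs of the germ line that guide PIWI proteins to transposon transcripts, and most of them begin with U, written here as T. B1 and B2 are short interspersed repeats of the mouse genome, present in very many copies, many of them inside transcripts, and LINE-1 is a long interspersed repeat that codes for its own proteins. Fragments of ribosomal, transfer, small nuclear and Y RNAs also enter small RNA libraries. Repeat and tRNA names below come from general knowledge of these sequences, while gene names come from exact matches to GENCODE M21 transcripts.

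The sequences that carry most of the member reads, or show best how the libraries differ, are given 5′ to 3′ with positions 1 to 4 in capitals, and those longer than 30 nt by their first 30 bases. The first set is B1 in the orientation of its own transcript, where the Tdrkh+/- sequence differs from all 3 others at position 2 and the Tdrkh-/- sequences differ among themselves at position 3 or in length.
Tdrkh-/-, 145466 reads: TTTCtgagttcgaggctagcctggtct
Tdrkh-/-, 102323 reads: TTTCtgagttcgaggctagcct
Tdrkh-/-, 1370 reads: TTCCtgagttcgaggctagcctggtct
Tdrkh+/-, 2191 reads: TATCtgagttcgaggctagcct
The second set is B1 on the opposite strand, where most members share a 3′ part and differ in their first bases, and a pair in each library differs further inside.
Tdrkh-/-, 9127 reads: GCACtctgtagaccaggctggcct
Tdrkh-/-, 6656 reads: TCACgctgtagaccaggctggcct
Tdrkh-/-, 2517 reads: TCACgcagtagaccaggctggcct
Tdrkh-/-, 1438 reads: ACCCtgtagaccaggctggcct
Tdrkh+/-, 2961 reads: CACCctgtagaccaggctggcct
Tdrkh+/-, 4608 reads: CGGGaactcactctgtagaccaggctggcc
Tdrkh+/-, 3118 reads: CGGGaactcactttgtagaccaggctggcc
The third set is a valine tRNA fragment from position 5 on, of which all 4 versions were 33 nt long.
Tdrkh-/-, 1248 reads: GTTAccgtagtgtagtggttatcacgttcg
Tdrkh+/-, 1999 reads: GGTGccgtagtgtagtggttatcacgttcg
Tdrkh+/-, 1150 reads: GGTCccgtagtgtagtggttatcacgttcg
Tdrkh+/-, 1041 reads: GGTAccgtagtgtagtggttatcacgttcg
The fourth set holds pieces of structural RNAs, where each library had starts that the other lacked.
ribosomal RNA on chromosome 17, Tdrkh+/-, 2651 reads: ACGAacgagactctggcatgctaac
ribosomal RNA on chromosome 17, Tdrkh+/-, 1800 reads: ACGAgactctggcatgctaactagtt
ribosomal RNA on chromosome 17, Tdrkh-/-, 1215 reads: ACGGacaggattgacagattgatagctctt
small ribosomal RNA of many gene copies, Tdrkh-/-, 2918 reads: GACTacggccataccaccctgaacgcgccc
small ribosomal RNA of many gene copies, Tdrkh+/-, 1166 reads: CACCctgaacgcgcccga
U2-type small nuclear RNA, Tdrkh+/-, 2134 reads: ACGCatcgacctggtattgcagtacctcca
Rny3, Tdrkh-/-, 1802 reads: GCTCccactgcttcacttgaccagcct
The fifth set holds members whose start was read in both libraries and continued there at other lengths.
Tdrkh-/-, 1222 reads: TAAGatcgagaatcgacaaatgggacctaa
Tdrkh-/-, 1478 reads: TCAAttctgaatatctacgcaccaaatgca
Gna13, Tdrkh-/-, 1088 reads: TACGaggtagaagttttgggtctgtgaggg
Tdrkh+/-, 1063 reads: TAGAagtcaaagcttggttcctggccaccc
Tdrkh+/-, 1060 reads: TCCTtgaactctgcctgttgccaggac
Tdrkh+/-, 1059 reads: TAAGctgtagatcaaagaaagatatgtcat

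Grouping members that share at least 14 nt on either strand gave 27 families. The largest was of B1 sequence, with 31 members and 377484 reads in Tdrkh-/- and 6 members and 20624 reads in Tdrkh+/-. A member from another part of B1, sharing no 14 nt with these, falls in another family, so these are not counts of all B1 members. In the orientation shown first, 24 members of this family, of 21 to 28 nt, held 351602 reads in Tdrkh-/-, 86.6% of that library's member reads. All 24 began with T. The same orientation gave 2 members with 3935 reads in Tdrkh+/-, and both also began with T. On the opposite strand, 7 members with 25882 reads were found in Tdrkh-/- and 4 with 16689 reads in Tdrkh+/-. A sequence in this family can come from any of many copies, so a match to a gene does not place its source.

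Most B1 reads of the Tdrkh-/- members came from 1 start. The first 18 nt of the sequence of 145466 reads had 320636 reads in Tdrkh-/- and 698 in Tdrkh+/-, and the 10 members with this start took 94.2% of those reads in Tdrkh-/-. None of the 10 had a line in Tdrkh+/-, as the rule requires. If a missing line means that the sequence was not read, 0 of 698 reads would allow each a share of up to 0.43%. The 698 reads of Tdrkh+/- were spread over 294 other sequences, of which 89 were also listed in Tdrkh-/-, and the largest of them, a 27-nt sequence with other bases at its 3′ end, had 97 reads in Tdrkh+/- and 118 in Tdrkh-/-. Minor continuations of this start were thus read in both libraries, while the forms that dominated Tdrkh-/- were listed in that library alone. Counted per microRNA read, with 3 reads put in for its missing line, the sequence of 145466 reads was 46093-fold higher in Tdrkh-/-. This value follows from the rule, and it is a bound only if the missing line means that the sequence was not read.

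A second B1 start, which differs from the first by T17C with the first start's base written first, had 55019 reads in Tdrkh-/- and 183 in Tdrkh+/-, and its 10 members took 81.9% of the Tdrkh-/- reads. Another start, which differs from the first by T3C, had 3465 and 43 reads. Tdrkh+/- held its own version of the first: its 2 members of 22 and 27 nt differ from the members of 102323 and 145466 reads by T2A, with the Tdrkh-/- base written first and positions counted from 1 at the 5′ end. Their start had 5152 reads in Tdrkh+/- and 198 in Tdrkh-/-. Both Tdrkh+/- members had no transcript match, and the same change was the only difference from the nearest transcripts. With the bases ahead left out, the 14 nt at positions 5 to 18 were read 329958 times in Tdrkh-/- and 9685 times in Tdrkh+/-, a log2 ratio per microRNA read of 5.02. In Tdrkh-/-, nearly all of these reads were at the starts that the rule had selected, and in Tdrkh+/- a smaller share was. Without the 3 member starts, and with at most 8 nt ahead of the stretch, 4519 reads remained in Tdrkh-/- and 3302 in Tdrkh+/-, a log2 ratio of 0.38.

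Most B1 members of the opposite strand shared their 3′ part across libraries and differed in their first bases. For the member of 9127 reads in Tdrkh-/-, the 14 nt at positions 5 to 18 had 105878 reads in Tdrkh-/- and 53353 in Tdrkh+/-, a log2 ratio of 0.92. The start beginning GCAC had 19424 reads in Tdrkh-/- and 201 in Tdrkh+/-, the start beginning TCGC had 949 and 9651 reads, and the start beginning TCAC had 27929 and 10621 reads. The first 2 starts are those of members and were selected for their difference, while the third, which is no member's start and has the most reads, had a log2 ratio of 1.32. Without both member starts, the stretch had 69260 and 25861 reads, a log2 ratio of 1.35. The member of 6002 reads, the largest of Tdrkh+/-, belonged to the start beginning TCGC.

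Shifts of 1 base separated 2 further B1 members. The member of 2961 reads in Tdrkh+/- is the Tdrkh-/- member of 1438 reads with 1 more base at its 5′ end. The start of the longer one had 4368 reads in Tdrkh+/- and 195 in Tdrkh-/-, and that of the shorter one 15 and 2199. The pair beginning CGGG in Tdrkh+/- differed from each other at position 13 alone. The start of the member of 4608 reads had 10116 reads in Tdrkh+/- and 1190 in Tdrkh-/-, and the 14 nt at its positions 5 to 18, without that start, had 11022 and 16799 reads.

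Of the 11 members of the opposite strand, 8 were 1 base away from a sequence that occurs in 603 to 1026 annotated genes and that neither table lists, with the difference at positions 1 to 5. For each member this was the 1-base change held by the most genes. The same count was not made for sequences found in both libraries, so whether 8 of 11 is unusual was not tested. For the members of 9127 and 6656 reads the changes were G1T and G5T, member base first, and both lead to 1 sequence held by 938 genes. For the members of 1438 and 2961 reads they were C3T and C4T, and for the members of 4608 and 3118 reads G2T in each case. In the first orientation the many-copy neighbours were listed: T17C of the sequence of 102323 reads, held by 1034 genes, had 16347 reads in Tdrkh-/- and no line in Tdrkh+/-.

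A second count started from the transcripts and not from the members. Of the distinct 24-nt stretches found in 21 to 100 genes on either strand, 1303 of 84248 were listed at that exact length in Tdrkh-/- and 1265 in Tdrkh+/-, 1.55% and 1.5%. In 101 to 500 genes the shares were 0.537% and 1.02% of 10420. In 501 to 1000 genes they were 1.7% and 2.04%, which is 5 and 6 of 294, and 1 of these was in both. In more than 1000 genes, 0 of 32 were listed in either library, too few to show a lower share than in the other bins. The 24-nt sequence of 956 genes that Tdrkh-/- listed with 3349 reads was itself a member, another of 956 genes had 12 reads there and no line in Tdrkh+/-, and the listed sequence of the most genes, 960, had 558 reads in Tdrkh+/- and no line in Tdrkh-/-.

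In Tdrkh+/-, 3 members with 4763 reads together came from B2, on the strand opposite to its transcript, and had no counterpart among the Tdrkh-/- members. Their 2 starts had 3729 and 2651 reads in Tdrkh+/- against 63 and 11 in Tdrkh-/-. The 14 nt at positions 5 to 18 of the largest were read 5935 times in Tdrkh+/- and 3406 times in Tdrkh-/-, a log2 ratio of -0.87. Without the start of that member, and with at most 8 nt ahead, 1195 and 1101 reads remained. Each of these 3 sequences occurs in more than 20 genes.

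The starts of the valine tRNA fragment were separate in the libraries. Valine tRNA reads valine codons during translation, and fragments from its 5′ part are common in small RNA libraries. The 4 members shared everything from position 5 on, and their 14 nt at positions 5 to 18 were read 4053 times in Tdrkh-/- and 4839 times in Tdrkh+/-, a log2 ratio of -0.33. Without the 4 member starts, 2232 and 235 reads remained, a log2 ratio of 3.17. The starts left out were 3 of Tdrkh+/- and 1 of Tdrkh-/-, whose other starts had too few reads for the rule. This ratio therefore follows from the selection. No start of this stretch was read in both libraries: 23 starts were found in Tdrkh-/- and 12 in Tdrkh+/-, and 0 in both. The same held for the unmatched 40-nt member of Tdrkh+/-, whose stretch had 6 starts in Tdrkh-/- and 1 in Tdrkh+/-. The 4 starts with the most reads in Tdrkh-/-, that of its member first, had 1821, 663, 634 and 436 reads. The starts of the 3 Tdrkh+/- members had 2193, 1253 and 1158 reads. None of the 4 members matched a transcript within 2 mismatches, and the annotation used here holds no nuclear tRNA.

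Structural RNA genes held 4 members of Tdrkh-/- and 5 of Tdrkh+/-, that is 7.84% and 21.7% of members, against 0.168% and 0.0898% of the sequences of at least 1000 reads found in both libraries. None of these 9 members had a read at its exact start in the other library. All these shares count exact matches to annotated genes alone. The valine tRNA members and the ribosomal member of 2918 reads are therefore outside them, so the shares are not those of all structural RNA. The ribosomal RNA locus on chromosome 17, annotated as AY036118 with CT010467.1 and Gm42418 over it, gave 2 members of each library from different places. The start of the Tdrkh+/- member of 2651 reads had 10042 reads there and 0 in Tdrkh-/-, and that of the Tdrkh-/- member of 1215 reads had 5023 reads and 0 in Tdrkh+/-. For the first, the 14 nt at positions 5 to 18 were read 813 times in Tdrkh-/- and 16295 times in Tdrkh+/-, a log2 ratio of -4.40. For the second they were read 5491 and 76 times, a log2 ratio of 6.10. Without the member's start and with at most 8 nt ahead, the first had 554 and 6230 reads, a log2 ratio of -3.56, and the second 252 and 65, a log2 ratio of 1.88.

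The small ribosomal RNA of many gene copies gave an 18-nt member in Tdrkh+/- that 52 annotated genes hold. Its start had 3340 reads in Tdrkh+/- and 0 in Tdrkh-/-, yet with 1 more base ahead the same RNA was read 6713 times in Tdrkh-/- and 3754 times in Tdrkh+/-. The Tdrkh-/- member of 2918 reads overlaps it and differs from its transcripts by T2A, transcript base first. The form without this change occurs in 44 genes and had no line in either table. The U2-type members of Tdrkh+/-, from the RNA that pairs with the branch site in splicing, matched 10 genes including Rnu2-10, and their start had 4504 reads and 0 in Tdrkh-/-. In Tdrkh-/-, the member from Rny3, a Y RNA, lies at chr6:47781696-47781722 of GRCm38 on the plus strand, and its start had 2082 reads and 0 in Tdrkh+/-. The member from Rn7sk, the RNA that holds the elongation factor P-TEFb inactive, had 1635 reads, with 5559 and 0 reads at its start.

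Other members were single lengths in a ladder of lengths that both libraries held. The Tdrkh-/- member of 1222 reads, of 36 nt, contains a LINE-1 stretch, and its start was read 116549 times in Tdrkh-/-, the member being 1.05% of this, and 1902 times in Tdrkh+/-. The 28-nt sequence of the same start had 17559 reads in Tdrkh-/- and 970 in Tdrkh+/-. The member of 1478 reads, of 39 nt and also from LINE-1, had 34858 and 414 reads at its start, and the 28-nt sequence of that start had 779 and 149. At both of these LINE-1 starts, the member was thus listed in Tdrkh-/- alone, while a shorter form was read in both. Elsewhere a form longer than the member was shared. Beside the 36-nt member of 1293 reads, a 37-nt form was counted 4357 times in Tdrkh-/- and 12 times in Tdrkh+/-. Beside the 38-nt member of 1086 reads, a 39-nt form was counted 165 times in Tdrkh-/- and 2 times in Tdrkh+/-. In all, 14 members of Tdrkh-/- had at least 1 line, in either library, for the sequence shortened by 1, 2 or 3 nt at its 5′ end, and their median length was 35 nt. For 3 of these 14, under 1% of the reads at the start were in sequences that both libraries listed, so not all lay in such a ladder.

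Among members that matched 1 gene, Gna13, which encodes an alpha subunit of a heterotrimeric G protein, held a 35-nt member in its 3′ UTR at chr11:109400669-109400703 of GRCm38, on the plus strand and in exon 4 of 4. Its start had 2919 reads in Tdrkh-/- and 172 in Tdrkh+/-, and the largest Tdrkh+/- sequence of that start was 23 nt long, with 29 reads there and 68 in Tdrkh-/-. The other 1-gene matches, apart from Rny3 and Gm42863, a locus of unknown role, were to B1. The Gm42863 member lay antisense to that locus. With T11C, member base first, its sequence occurs in 3 genes and had 3125 reads in Tdrkh-/- and 7 in Tdrkh+/-. Hsd17b7, an enzyme of cholesterol synthesis, held the 29-nt form of the B1 start beginning GCAC, with 3286 reads, at chr1:169950983-169951011 in its 3′ UTR. Sgms2, a sphingomyelin synthase, held the member of 2517 reads at chr3:131319754-131319777 in its 3′ UTR. In Tdrkh+/-, the noncoding D130020L05Rik held the member of 4608 reads at chr12:101088237-101088267, and Olfr877, an olfactory receptor gene, the member of 3118 reads at chr9:37856430-37856460 in its 3′ UTR.

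The 3 members of Tdrkh+/- of 1063, 1060 and 1059 reads resembled piRNAs in length and first base, with 31, 27 and 31 nt and T at position 1, and matched no transcript within 2 mismatches. Their starts had 15118, 5029 and 4118 reads in Tdrkh+/- and 136, 39 and 34 in Tdrkh-/-. Their 14 nt at positions 5 to 18 had log2 ratios of -6.84, -6.39 and -6.62, and of -6.99, -5.03 and -6.62 without the members' own starts. For the first, the 29-nt sequence of the same start was listed with 8741 reads in Tdrkh+/- and 60 in Tdrkh-/-, so these RNAs were read in both libraries, with more reads in Tdrkh+/-.

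Over all members, the median length was 27 nt in each library, from 18 to 39 nt in Tdrkh-/- and from 18 to 40 nt in Tdrkh+/-. The sequences of at least 1000 reads found in both libraries had a median of 32 nt for Tdrkh-/-, and for Tdrkh+/- it was 28 nt. T was the first base of 36 of 51 members in Tdrkh-/- (70.6%, Wilson interval 57.0 to 81.3) and of 10 of 23 in Tdrkh+/- (43.5%, 25.6 to 63.2). Among those found in both libraries T came first in 76.1% for Tdrkh-/- and 89.7% for Tdrkh+/-. C was the first base of 6 of the 23 Tdrkh+/- members and of 3.82% of the sequences found in both libraries. Members of 1 family share a stretch of sequence, many share their start, and they are not independent. These intervals are therefore narrower than the number of starts, 27 and 20, would give.

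A transcript match on either strand was found for 39 of 51 members of Tdrkh-/- (76.5%, Wilson interval 63.2 to 86.0) and 12 of 23 of Tdrkh+/- (52.2%, 33.0 to 70.8). The corresponding shares of sequences found in both libraries were 71.8% and 57.3%. No member was assigned to the microRNAs. Of the 12 unmatched members in Tdrkh-/-, 10 were 1 mismatch from a transcript and 1 was 2 mismatches away. Of the 11 in Tdrkh+/-, 2 were 1 mismatch away and 1 was 2 mismatches away.

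The start of a member was read in the other library, from other sequences, for 44 of 51 members of Tdrkh-/- (86.3%, Wilson interval 74.3 to 93.2) and 12 of 23 of Tdrkh+/- (52.2%, 33.0 to 70.8). With 1 mismatch allowed it was read for 50 and 22. Members that share a start repeat its value, so these intervals are too narrow. Counted by exact start, 6 of 27 starts of Tdrkh-/- members and 10 of 20 of Tdrkh+/- members had 0 reads in the other library. Among the sequences found in both libraries, the start was read in the other library from a sequence other than itself for 99.7% in Tdrkh-/- and 99.3% in Tdrkh+/-. Of the members with no read at their start, 4 of 7 in Tdrkh-/- and 5 of 11 in Tdrkh+/- were structural RNA by an exact match. The others had no transcript match, but the valine tRNA members and the ribosomal member of 2918 reads are among them. The log2 ratio of reads at the start, Tdrkh-/- over Tdrkh+/- per microRNA read, had a median of 8.16 over the Tdrkh-/- members and -7.99 over the Tdrkh+/- members. Without the reads of the member itself the medians were 7.65 and -6.53. The rule fixed the direction of these values.

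The neighbours of members in the tables were few at the 5′ end. For 36 of the 50 members of at least 21 nt in Tdrkh-/- (72%, Wilson interval 58.3 to 82.5), the sequence shortened by 1, by 2 and by 3 nt at its first base had no line in either library. For Tdrkh+/- this held for 15 of 21 (71.4%, 50.0 to 86.2). Among the sequences found in both libraries it held for 87 of 3516 in Tdrkh-/- (2.47%) and 78 of 2201 in Tdrkh+/- (3.54%). Counted by start, 12 starts of Tdrkh-/- had such members and 14 did not, and in Tdrkh+/- the numbers were 13 and 6, with 1 start in both counts. For the sequence of 145466 reads, all 3 shortened forms were without a line in both libraries. By the rule, no member's reads can be in sequences that both libraries list. The next shares are thus limited by the part of a start that members took. That part was 94.2% at the first B1 start and 1.05% at the start of the member of 1222 reads. For Tdrkh-/- members without a shortened line, a median of 0.527% of own start reads were in sequences that both libraries listed. It was 26.6% for the 14 others. In Tdrkh+/- the medians were 0% and 22.96%. Members that share a start repeat its value in these medians, and the contrast was not tested.

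Signs of an adapter were looked for in the members' own ends. The last 4 bases GCCT closed 11 of 51 members in Tdrkh-/- (21.6%) and 8 of 23 in Tdrkh+/- (34.8%). They closed 10.4% and 14.9% of the sequences found in both libraries. In B1 and in the valine tRNA fragment these bases belong to the RNA itself. Among the unmatched members, the 4 bases after the longest part that matches a transcript took 9 different forms in 12 members of Tdrkh-/- and 9 in 11 of Tdrkh+/-, and no form was shared by more than 2 members. Where that part was short, as at 12 nt for the valine tRNA member of Tdrkh-/-, the bases after it need not be a tail. No common tail was seen in these counts, which cannot exclude one, and no run of 1 base was longer than 4.

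The lists of host genes were nearly empty. No member matched a mitochondrially encoded gene. Genes of the piRNA pathway, ribosomal protein genes and histone genes were each matched by 7 members of Tdrkh-/- and 0 of Tdrkh+/-, and in each list all 7 were sequences found in more than 20 genes. Near the threshold, the Tdrkh-/- members with the fewest reads had 1016, 1020 and 1079, and the sequences just under the minimum with no line in Tdrkh+/- had 993, 985 and 975. In Tdrkh+/- the corresponding values were 1009, 1025 and 1041, and 985, 934 and 920. A single read in the other library kept 29 sequences of Tdrkh-/- and 7 of Tdrkh+/- outside the rule, the largest of them with 3416 and 1272 reads.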

How the data were processed

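Each deposited table lists the distinct sequences of 1 library with their read counts, which were not normalized. Per the labels' protocols, the libraries came from an Illumina small RNA kit read on a Genome Analyzer II. Bowtie and mm9 are named in the submitters' processing notes. The sources used here give no adapter trimming and no filter.

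Whole sequences were compared with GENCODE M21 transcripts (GRCm38) on both strands without mismatches, using Python 3.11.15, Numba 0.67.0, NumPy 2.4.6 and SciPy 1.17.1. No genome was used. The rule and the matcher were tested on simulated data and returned 200 of 200 planted members and 100 of 100 planted transcript pieces. Sense reads of 18 to 25 nt in annotated microRNA hairpins, 2486303 in Tdrkh-/- and 2363475 in Tdrkh+/-, scaled the log2 ratios, and 3 reads stood in for a count of 0. A start is the first 18 nt of a sequence. Reads with the 14 nt at positions 5 to 18 of a member were counted at any position, and the starts ahead of it, and the reads left without member starts, within 8 nt. A match counted as structural RNA when most of its genes are of such types or when it lies in the chromosome 17 ribosomal locus.

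Members and gene lists were chosen with earlier results of these data known, and the counts of shortened forms, of 1-base neighbours and of 24-nt stretches by gene number were added after values had been seen. Named sequences are the members with the most reads, by library and class, and the top member of each family. Sequences that match a transcript of chromosome 18 are not printed. Alternatives changed the read minimum, the start length, the mismatches, the strand and the scaling.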

Additional observations from a re-analysis of the deposited data

How the results depend on the processing

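No paired analysis was possible because each genotype had 1 library, so leaving out a replicate was not possible either. Every change below follows from the altered selection or count, and no value reversed its sign; a share counts as moved outside the Wilson interval of the reported one, a median log2 ratio when it moves by 0.5 or more. A minimum of 500 reads gave 231 members in Tdrkh-/- and 103 in Tdrkh+/-, with a match for 61.0% of the Tdrkh-/- members, a start read in Tdrkh-/- for 70.9% of the Tdrkh+/- members, and median log2 ratios of 7.17 and -7.33. A minimum of 2000 reads gave 19 and 8 members, matches for 94.7% and 87.5%, starts read in the other library for 94.7% and 75%, and a median log2 ratio of -4.92 for Tdrkh+/-. At most 1 read in the other library gave 80 members in Tdrkh-/-. A minimum in Tdrkh+/- of the same share of reads as in Tdrkh-/-, 709 reads, gave 48 members there. With 1 mismatch allowed, starts were read in the other library for 98.0% and 95.7%. Starts of 20 nt gave a median log2 ratio of -7.07 for Tdrkh+/-. Sense matches alone, starts of 16 nt and scaling per read listed moved no value. Depth limits what a missing line shows: rare sequences may be unread, and rows may be missing from the tables used here for other reasons.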
